A study of Mus musculus with 16 samples.

Results

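The genes described here are the 6 that mark the acetylcholine-releasing interneurons of the striatum: Chat, Slc5a7, Slc18a3, Slc17a8, Lhx8 and Ache. They were taken by name from the 20730 genes listed for each of 16 RNA-seq libraries, and every one of them was found once and passed the filter on low values in all 5 comparisons. The libraries came from the striata of 8 adult C57BL/6N mice. All 8 had received a RiboTag AAV, which expresses Rpl22-HA, a ribosomal protein with a hemagglutinin tag, in astrocytes. A second AAV encoded hPMCA2w/b, a plasma membrane calcium pump that suppresses calcium signals, in 4 mice (PMCA mice), or a control protein in the other 4 (control mice). Of each mouse 2 libraries were sequenced, the RNA precipitated through the tag (IP) and that of the cleared lysate (input). The 4 groups of 4 libraries were thus PMCA IP, control IP, PMCA input and control input. The promoter that restricts the tag to astrocytes, the exact age and the sex of the mice are not stated in the labels.

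Cholinergic interneurons are large, sparse and spontaneously active cells that supply most of the acetylcholine of the striatum. They take up choline, join it to acetyl-CoA, load the product into synaptic vesicles and release it, and the transmitter is then split outside the cell. Choline acetyltransferase (Chat) makes acetylcholine, the high-affinity choline transporter (Slc5a7) brings in choline, and the vesicular acetylcholine transporter (Slc18a3) fills the vesicles. Slc17a8 encodes VGLUT3, a vesicular glutamate transporter that these neurons also carry. Lhx8 is a LIM homeodomain transcription factor needed for their cholinergic fate, and Ache encodes acetylcholinesterase, the enzyme that splits acetylcholine and that other neurons also make.

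In the RefSeq annotation of GRCm38.p6, whose coordinates are those of the mm10 build the submitters name, Chat spans chr14:32408203-32465909 on the minus strand. Slc18a3 spans chr14:32462437-32464850, on the same strand and wholly inside the Chat gene, and its start lies 1059 bases from that of Chat. Reads of these nested genes cannot be separated by strand. How reads that overlap both genes were counted is not stated, so the counts of either may be affected. Slc5a7 spans chr17:54273590-54299038, Slc17a8 chr10:89574020-89621249 and Lhx8 chr3:154306288-154330560, all on the minus strand, and Ache spans chr5:137288247-137294466 on the plus strand. The promoter windows of Chat, Slc18a3 and Slc5a7 are shown because these genes serve the same transmitter and differ in how far their read counts moved together. Each is the RefSeq window of GRCm38.p6 from 250 bases before the start of the gene to 50 after it, read 5′ to 3′ on the strand of the gene. Capitals mark a match to one of the motifs searched.
Chat promoter, chr14:32465860-32466159, minus strand: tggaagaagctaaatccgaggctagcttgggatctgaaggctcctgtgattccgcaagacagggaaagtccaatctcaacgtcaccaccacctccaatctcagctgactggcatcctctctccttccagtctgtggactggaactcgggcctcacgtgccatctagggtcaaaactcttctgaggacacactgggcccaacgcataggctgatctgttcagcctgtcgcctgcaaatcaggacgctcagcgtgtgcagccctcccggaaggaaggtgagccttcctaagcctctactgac
Slc18a3 promoter, chr14:32464801-32465100, minus strand: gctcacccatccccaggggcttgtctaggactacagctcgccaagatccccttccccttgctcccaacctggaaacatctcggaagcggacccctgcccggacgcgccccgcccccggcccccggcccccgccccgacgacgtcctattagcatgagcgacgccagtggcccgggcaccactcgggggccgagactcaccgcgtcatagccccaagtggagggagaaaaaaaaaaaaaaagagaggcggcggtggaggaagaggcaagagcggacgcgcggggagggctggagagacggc
Slc5a7 promoter, chr17:54298985-54299284, minus strand: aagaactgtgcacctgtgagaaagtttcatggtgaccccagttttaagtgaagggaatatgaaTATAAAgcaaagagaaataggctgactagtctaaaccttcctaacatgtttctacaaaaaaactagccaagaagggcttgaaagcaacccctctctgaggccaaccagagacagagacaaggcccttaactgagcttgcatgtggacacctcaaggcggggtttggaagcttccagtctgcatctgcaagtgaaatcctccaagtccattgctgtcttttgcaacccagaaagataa

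GC content was 55.7% in the Chat window, 67% in that of Slc18a3 and 44.7% in that of Slc5a7, against a median of 52.7% over 32851 promoters. The search covered, on both strands, the homeodomain core TAATTA, the parts TTCAGCACC and GACAGCGCC of the RE1 element, the cyclic AMP element TGACGTCA and the box TATAAA. Of these, the Slc5a7 window held the box at position -187 from the start, and 13.6% of all promoters hold it. Slc17a8 has 2 windows listed. The more upstream one held GACAGCGCC at position -116, as 0.326% of promoters do, and the other held the homeodomain core at position -141, as 5.29% do. No motif searched was in the windows of Chat, Slc18a3, Lhx8 and Ache. The other RE1 part was present in 0.371% of promoters and the cyclic AMP element in 1.79%.

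IP libraries held 46.8 to 58.5 M reads (1 M is 1e6 reads) in the listed genes and input libraries 32.3 to 40.9 M reads. Each member had at least 274 reads in every library. Levels are given as log2 CPM, the deposited log2 of reads relative to the scaled size of each library. Xist, which is transcribed from the inactive X chromosome, stood at 9.11 log2 CPM in the IP of PMCA mouse 3 and 4.98 in that of control mouse 4, and below 0 in the other IP libraries. Those mice are left out together in an alternative given with the results they change. Astrocyte markers were high in the precipitate. The summed level of 14 of them was 48113 to 57155 CPM in PMCA IP, 35943 to 47411 in control IP, 4095 to 4362 in PMCA input and 3609 to 3716 in control input. Slc1a2 (the main glutamate transporter), Aldoc and Gfap were enriched by log2 folds of 3.996, 3.06 and 3.61 in PMCA mice and 3.91, 2.94 and 3.38 in control mice.

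The cholinergic genes were detected in every astrocyte-targeted precipitate, at levels above those of the lysate. Chat was at 6.60, 6.82, 6.66 and 6.79 log2 CPM in PMCA IP, at 7.21, 7.22, 7.06 and 7.11 in control IP, at 4.79, 4.75, 4.64 and 4.78 in PMCA input and at 4.71, 4.68, 4.57 and 4.64 in control input. Every IP library exceeded every input library, and every control IP exceeded every PMCA IP, whereas the inputs overlapped. In reads, Chat had 4465 to 5420 in PMCA IP, 5898 to 7519 in control IP, 987 to 1191 in PMCA input and 934 to 1112 in control input. The sum of the 6 genes was 502 to 565 CPM in PMCA IP, 622 to 723 in control IP, 155 to 176 in PMCA input and 153 to 170 in control input.

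The choline transporter Slc5a7 was at 6.97, 7.21, 7.03 and 7.17 log2 CPM in PMCA IP, at 7.74, 7.76, 7.48 and 7.43 in control IP, at 5.39, 5.60, 5.28 and 5.58 in PMCA input and at 5.39, 5.36, 5.17 and 5.23 in control input. Its order was that of Chat, with control IP highest and the inputs overlapping. The vesicular transporter Slc18a3 was at 5.08, 5.22, 5.12 and 4.91 in PMCA IP, at 5.32, 5.31, 5.20 and 5.48 in control IP, at 2.9999, 3.13, 2.92 and 3.19 in PMCA input and at 3.16, 2.91, 3.10 and 3.37 in control input. Here PMCA IP and control IP overlapped, since PMCA mouse 2 stood above control mouse 3.

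VGLUT3, encoded by Slc17a8, was at 5.81, 5.99, 5.76 and 5.76 log2 CPM in PMCA IP, at 6.26, 6.23, 6.04 and 6.08 in control IP, at 3.87, 3.82, 3.94 and 3.88 in PMCA input and at 3.69, 3.87, 3.62 and 3.69 in control input. The fate factor Lhx8 was at 4.18, 4.22, 4.13 and 4.10 in PMCA IP, at 4.55, 4.69, 4.49 and 4.57 in control IP, at 3.08, 3.26, 2.97 and 3.34 in PMCA input and at 3.24, 3.15, 3.30 and 3.10 in control input. Both genes had all control IP libraries above all PMCA IP libraries, and overlapping inputs. Ache, the degrading enzyme, was at 7.42, 7.53, 7.37 and 7.24 in PMCA IP, at 7.76, 7.76, 7.54 and 7.59 in control IP, at 5.95, 6.01, 5.92 and 6.06 in PMCA input and at 6.14, 6.00, 5.96 and 5.89 in control input. Its PMCA IP and control IP values came close, at 7.53 in PMCA mouse 2 and 7.54 in control mouse 3.

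**Figure D1:**
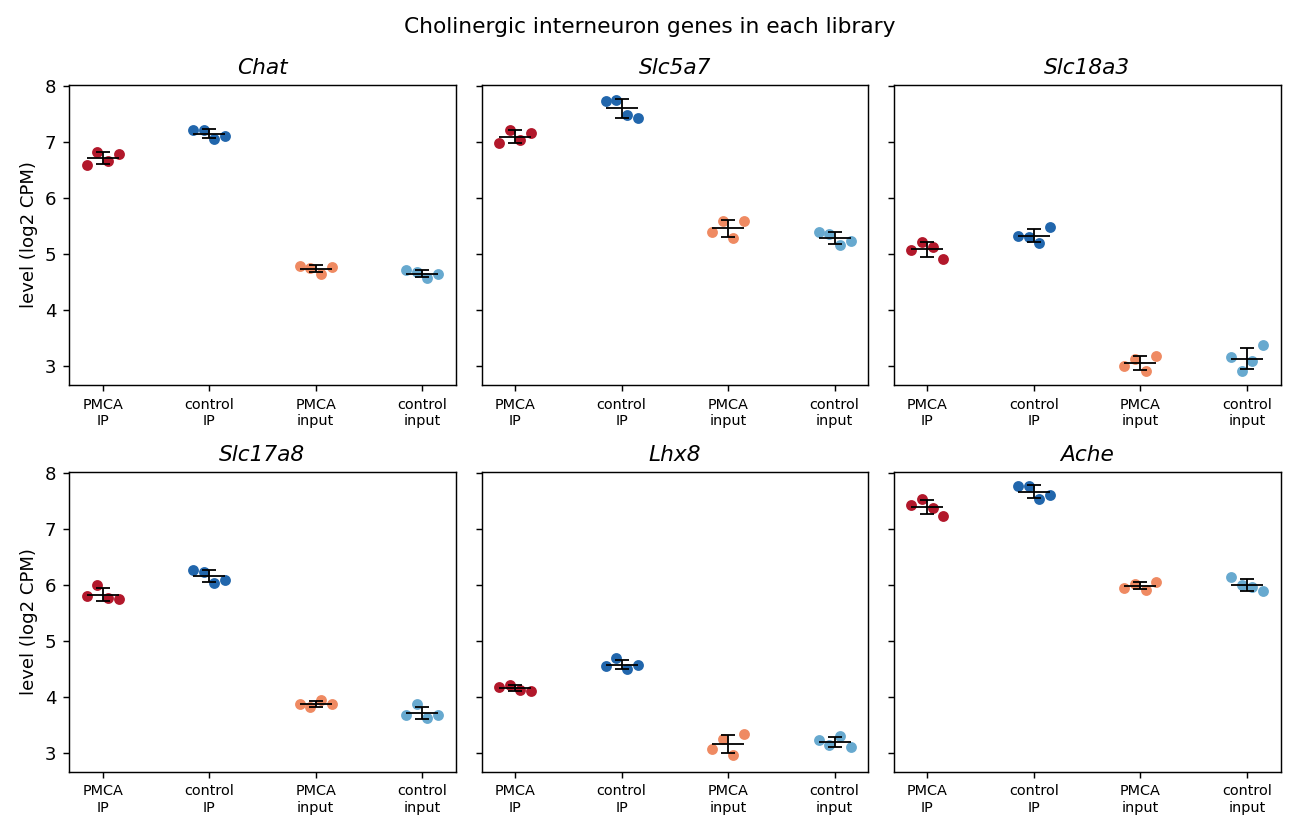
Level in log2 CPM (vertical axis) of the 6 cholinergic genes in PMCA IP, control IP, PMCA input and control input, with 1 point per library and bars for the mean and SD of 4 libraries. All IP points lie above all input points for each gene, and Slc18a3 is the gene whose PMCA and control IP points overlap.

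The comparison of IP with input asks which RNA the tagged ribosomes bring down. All 6 cholinergic genes were higher in IP than in input, in PMCA mice and in control mice, and the IP and input libraries of a treatment did not overlap for any of them. Over all genes tested, 37.4% were called higher in PMCA mice and 39.1% in control mice, and 35.6% and 37% were higher without overlap, so a call by itself did not set the members apart. Their median log2 fold was 1.79 in PMCA mice and 2.25 in control mice, beside -0.041 and -0.0025 over all genes tested. With CPM of the library total in place of the authors' scaling, that median over all genes moved to -0.35 in PMCA mice and -0.28 in control mice. The members stayed higher with that scaling, with log2 folds of 0.69 (Lhx8) to 1.72 (Slc18a3) in PMCA mice and 1.10 (Lhx8) to 2.22 (Chat) in control mice.

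Chat was enriched by a log2 fold of 1.98 (SE 0.063, n = 4 mice) in PMCA mice and 2.50 (SE 0.057, n = 4) in control mice, which is 3.94-fold and 5.66-fold (limma, adjusted p = 9.79e-10 and 4e-10). Slc5a7 was enriched by 1.63 (SE 0.083) and 2.31 (SE 0.087), or 3.10-fold in PMCA and 4.97-fold in control mice. For Slc18a3 the log2 folds were 2.03 (SE 0.087) in PMCA mice and 2.19 (SE 0.10) in control mice. With the authors' scaling, the genes of synthesis, uptake and vesicle filling thus all stood at least 3.10-fold above the lysate in both treatments. With CPM of the library total, the log2 fold of Slc5a7 in PMCA mice was 1.32 in place of 1.63. Slc17a8 was enriched by 1.95 (SE 0.065) in PMCA mice and 2.44 (SE 0.076) in control mice. Ache reached 1.41 (SE 0.065) in PMCA mice and 1.66 (SE 0.072) in control mice, and Lhx8, the least enriched, 0.996 (SE 0.089) and 1.38 (SE 0.075). Adjusted p-values of the other 5 genes from limma were at most 2.33e-06 in PMCA mice and 3.87e-08 in control mice.

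Enrichment was also taken within each mouse, as the IP level minus the input level, which removes what the fractions of 1 animal share. For Chat the difference was 1.81, 2.07, 2.02 and 2.01 in PMCA mice and 2.50, 2.54, 2.49 and 2.46 in control mice. The control values were close together and all above the PMCA values. For Slc5a7 the values were 1.58, 1.61, 1.74 and 1.58 in PMCA mice and 2.35, 2.40, 2.31 and 2.20 in control mice, again without overlap. The Slc17a8 values also did not overlap, at 1.82 to 2.17 in PMCA mice and 2.36 to 2.57 in control mice, nor did those of Lhx8 (0.77 to 1.15 against 1.19 to 1.54) and Ache (1.18 to 1.52 against 1.58 to 1.76). The Slc18a3 values, 1.73 to 2.20 in PMCA mice and 2.11 to 2.40 in control mice, did overlap.

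The 6 genes were not enriched to the same extent. Over the 15 pairs of members, the difference in enrichment within the 8 mice passed an exact two-sided sign-flip test, adjusted over the pairs, in 11. The smallest p that 8 mice allow is 0.0078. Lhx8 lay below each other member in 8 of 8 mice, by 1.05 log2 (SD 0.20) against Chat and by 0.35 (SD 0.11) against Ache, with an adjusted p of 0.0117 from the exact test. Ache in turn lay below Chat by 0.70 (SD 0.20), in 8 of 8 mice and with the same adjusted p. Chat exceeded Slc5a7 by 0.27 (SD 0.12) in 8 of 8 mice. The remaining pairs did not pass, namely Chat with Slc18a3 (0.13, SD 0.26, adjusted exact p = 0.244), Chat with Slc17a8 (0.045, SD 0.13, 0.36), Slc5a7 with Slc18a3 (-0.14, SD 0.30, 0.279) and Slc18a3 with Slc17a8 (-0.084, SD 0.27, 0.398). These values pool both treatments. Slc5a7 minus Slc18a3 was -0.39 (SD 0.17) in PMCA mice and 0.12 (SD 0.096) in control mice, Chat minus Slc18a3 was -0.049 (SD 0.25) and 0.31 (SD 0.11), and Slc18a3 minus Slc17a8 was 0.077 (SD 0.24) and -0.25 (SD 0.20). Chat exceeded Slc18a3 in 1 of 4 PMCA mice and 4 of 4 control mice. Slc5a7 lay below Slc18a3 in all 4 PMCA mice and above it in 3 of 4 control mice. The difference between treatments did not pass for any of the 15 pairs (exact two-sided permutation test of 4 against 4 mice, lowest p = 0.0286, the smallest possible, adjusted 0.143). A pair at that smallest p could pass only if many other pairs reached it too, so this test could not decide for a single pair.

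The unequal enrichment shows in the reads of each gene relative to Chat. This ratio depends on transcript length, so it is compared between libraries only. Lhx8 had 0.170 ± 0.013 CPM per CPM of Chat in PMCA IP and 0.336 ± 0.031 in PMCA input, and 0.168 ± 0.0069 in control IP and 0.366 ± 0.033 in control input (SD, n = 4 each). Ache had 1.60 ± 0.17 in PMCA IP and 2.37 ± 0.086 in PMCA input, and 1.42 ± 0.035 in control IP and 2.55 ± 0.14 in control input. For both genes every IP ratio lay below every input ratio. The same held for Slc5a7, with 1.30 ± 0.0081 in PMCA IP and 1.66 ± 0.14 in PMCA input, and 1.37 ± 0.096 in control IP and 1.55 ± 0.058 in control input. For Slc18a3 the IP and input ratios overlapped in each treatment. The ratio of Slc17a8 was 0.541 ± 0.038 in PMCA IP and 0.552 ± 0.042 in PMCA input, and 0.501 ± 0.012 in control IP and 0.523 ± 0.034 in control input, so the fractions overlapped in each treatment.

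**Figure D2:**
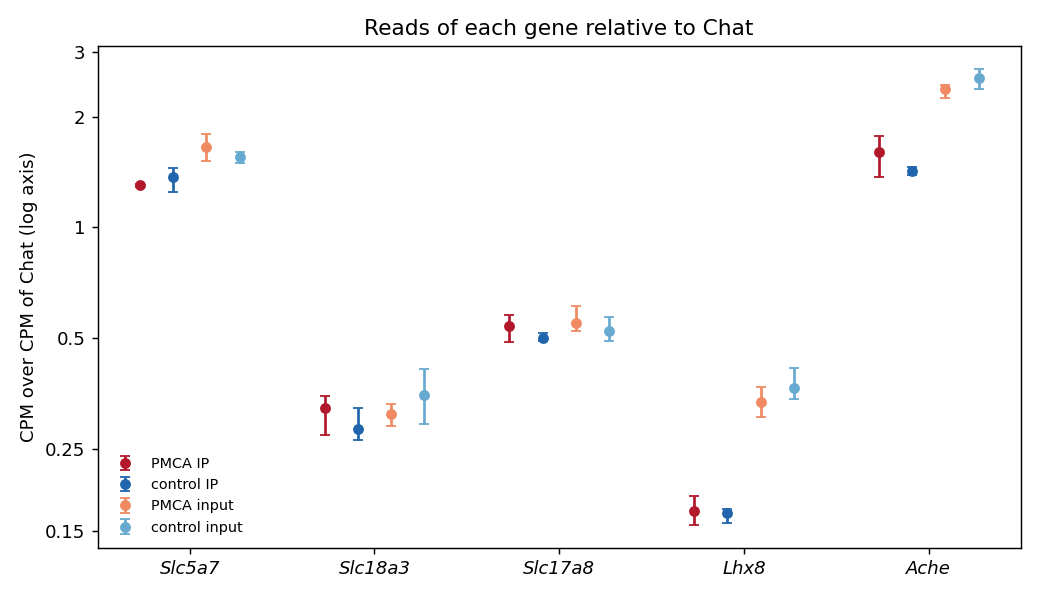
CPM of 5 cholinergic genes divided by the CPM of Chat in the same library (vertical log axis), with points for the mean of 4 libraries and bars from the lowest to the highest, in PMCA IP, control IP, PMCA input and control input. Lhx8, Ache and Slc5a7 sit lower in IP than in input, whereas the ranges of Slc17a8 and Slc18a3 overlap.

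Markers of other cells were set beside the members. Chat was enriched less than the median astrocyte marker in 8 of 8 mice, by 0.94 log2 (SD 0.36), and more than the median marker of general neurons by 2.90 (SD 0.17), of striatal projection neurons by 3.86 (SD 0.38) and of GABAergic interneurons by 1.26 (SD 0.31). Each of these comparisons had an adjusted p of 0.00815 by the exact two-sided sign-flip test over 24 comparisons of a member with a list, of which all 24 passed. The closest was Lhx8 against GABAergic interneurons, where it was higher by 0.21 (SD 0.20) in 6 of 8 mice (adjusted exact p = 0.0391). By these medians the 6 cholinergic genes lay between the general neuron markers and the astrocyte markers in each mouse. Some single GABAergic interneuron markers, given below, were enriched as much as the members or more.

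The neuronal lists did not move alike. Over all genes tested, 6430 of 16345 were called lower in IP in PMCA mice and 6172 of 16072 in control mice. Called higher were 37.4% in PMCA mice and 39.1% in control mice. All 13 markers of projection neurons, the principal cells of the striatum, fell in IP against input in both treatments, with median log2 folds of -1.62 in PMCA mice and -1.52 in control mice. Pde10a and Ppp1r1b (DARPP-32) had -1.27 and -1.57 in PMCA mice and -1.34 and -1.52 in control mice. Of 13 general neuron markers 10 fell and 2 rose in PMCA mice (median -0.90), and 8 fell and 3 rose in control mice (median -0.42). Snap25, a protein of the vesicle fusion machinery, had -1.07 in PMCA and -0.66 in control mice, the vesicle calcium sensor Syt1 -0.50 and -0.17 (not called in control mice, limma adjusted p = 0.109), and the neuronal enolase Eno2 -0.95 and -0.60.

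GABAergic interneuron markers were split in PMCA mice and mostly enriched in control mice. Of 12 such markers, 6 rose, 2 fell and 4 were not called in PMCA mice (median 0.69), and 10 rose and 1 fell in control mice (median 1.15). The shares of all genes called higher were 37.4% and 39.1%. Nos1, neuronal nitric oxide synthase, rose by 3.01 in PMCA mice and 3.48 in control mice, the neuropeptide gene Sst by 2.05 and 2.03, and Npy by 1.79 and 1.94. None of 6 cortical glutamatergic markers was called, with medians of -0.0094 in PMCA mice and -0.12 in control mice. Slc17a7 had -0.19 (SE 0.50) and -0.24 (SE 0.61), and Tbr1 0.17 (SE 0.49) and 0.27 (SE 0.66). Within mice, the median of this list ran from -1.42 to 0.60 in PMCA mice and from -0.52 to 0.39 in control mice. With this spread the lack of a call does not show a lack of change.

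Among glia, 5 of 8 oligodendrocyte markers rose in PMCA mice (median 0.45), and 3 rose and 1 fell in control mice (0.29). The count that rose in control mice was near the share of all genes called higher there, 39.1%. The myelin gene Cnp rose by 1.11 in PMCA mice and 0.95 in control mice, and Mbp had 0.12 and -0.15, not called in either. All 8 microglial markers (Ctss -6.05 and -6.45, Csf1r -4.66 and -5.49, C1qa -5.38 and -5.85) and all 6 endothelial markers (Flt1 -3.21 and -3.42, Cldn5 -4.05 and -4.36, Ly6c1 -3.06 and -4.34) fell in PMCA and in control mice. In the precipitate the microglial sum was 40.7 to 74.6 CPM in PMCA IP and 23.3 to 36.5 in control IP. Which cells the precipitated cholinergic RNA came from was not tested.

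**Figure D3:**
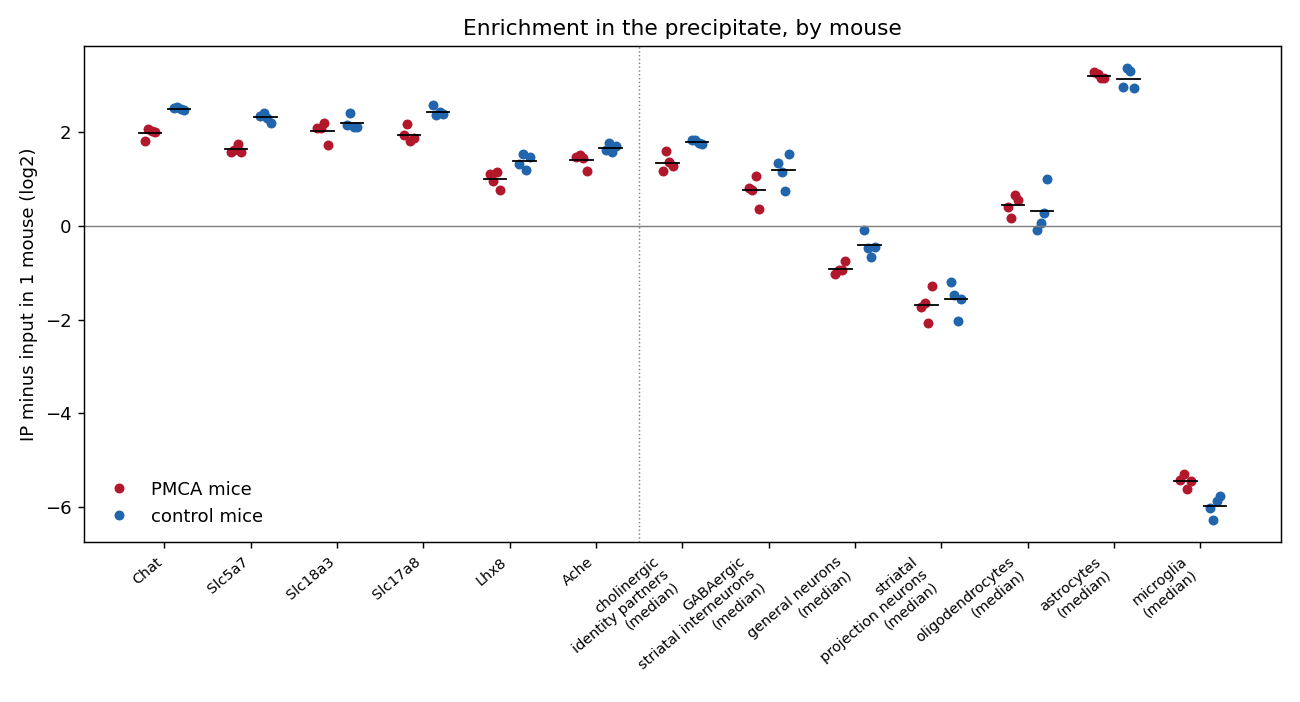
IP level minus input level of the same mouse, in log2 units (vertical axis), for the 6 cholinergic genes and for the median gene of 7 marker lists, with 1 point per mouse and a line at the mean of 4, PMCA mice left of control mice. The cholinergic genes lie at 0.77 to 2.57, above the general neuron and projection neuron lists and below the astrocyte list.

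Other genes known from cholinergic neurons, listed for this comparison, were mostly enriched as well. Of 11 such genes 9 rose and 1 fell in IP against input in PMCA mice (median 1.32), and 10 rose and 1 fell in control mice (median 1.85). The shares of all genes called higher were 37.4% in PMCA mice and 39.1% in control mice. The substance P receptor Tacr1 led, with 2.61 in PMCA mice and 2.89 in control mice. High values were also found for the peptidase Ecel1 (1.99 and 2.19), the transporter Slc10a4 of cholinergic vesicles (1.76 and 2.07) and the transcription factor Gbx2 (1.77 and 2.16). The muscarinic receptor Chrm2 rose by 1.32 in PMCA mice and 1.85 in control mice, the dopamine receptor Drd5 by 1.28 and 1.64, and the transcription factors Zic4 by 1.16 and 1.37 and Nkx2-1 by 0.89 and 0.81.

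Isl1 and Ngfr stood apart from the other listed genes. Isl1, a LIM homeodomain factor that other striatal neurons also carry, fell in IP against input by 0.55 on the log2 scale in PMCA mice and by 0.40 in control mice (limma, adjusted p = 0.000488 and 0.00587). Ngfr, the p75 neurotrophin receptor, rose by 1.37 in control mice, and its 0.51 in PMCA mice did not pass (limma, adjusted p = 0.0936).

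The wider machinery around acetylcholine was split. Of 17 genes of choline and acetylcholine handling 15 could be tested; in IP against input 10 rose and 2 fell in PMCA mice (median 0.77), and 8 rose and 1 fell in control mice (0.54). Acly, which makes the acetyl-CoA used in acetylcholine and in lipid synthesis, rose by 1.39 in PMCA mice and 1.79 in control mice, the choline transporter-like gene Slc44a1 by 0.87 and 0.67, and Chpt1, of phosphatidylcholine synthesis, by 1.61 in each. Receptors for acetylcholine and their modulators went the other way in most cases, with 2 higher and 9 lower of 15 tested in PMCA mice (median -0.43) and 3 higher and 9 lower of 14 in control mice (median -0.66). Over all genes tested, 37.4% were higher and 6430 of 16345 lower in PMCA mice, and 39.1% higher and 6172 of 16072 lower in control mice. The muscarinic receptors Chrm1 and Chrm4 of projection neurons fell, by 1.68 and 1.50 in PMCA mice and by 1.64 and 1.33 in control mice, as did the nicotinic receptor modulator Lynx1, by 0.63 and 0.65. Chrm2 is also in this list and was among the receptors that rose.

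The comparison of PMCA with control mice asks what differed when astrocyte calcium signals were suppressed. In the precipitate, 5 of the 6 cholinergic genes were lower in PMCA mice, and the PMCA IP and control IP libraries of those 5 did not overlap. Over all genes 10.1% were called lower and 14.2% were lower without overlap. The median log2 fold of the members was -0.37, beside -0.012 over all genes tested. These libraries are the same as those in the IP against input comparisons, so the results are not independent of one another. In bulk RNA, fewer cells of a type and less RNA per cell cannot be told apart. The levels of the same genes in the lysate, and the shifts of Rpl22 and of other markers in the precipitate, are given below.

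Slc5a7 had the largest difference of the 6, a log2 fold of -0.50 (SE 0.093, n = 4 against 4; limma, adjusted p = 0.00694), with a mean of 137 ± 11 CPM in PMCA IP and 195 ± 23 CPM in control IP. Chat differed by -0.44 (SE 0.070; limma, adjusted p = 0.00425), with a mean of 105 ± 7.6 CPM in PMCA IP and 142 ± 7.7 CPM in control IP. Lhx8 differed by -0.42 (SE 0.069; adjusted p = 0.00444) and had 17.8 ± 0.65 CPM in PMCA IP and 23.9 ± 1.4 CPM in control IP. The precipitated RNA of the choline transporter, the synthetic enzyme and the fate factor was thus lower, and these 3 genes were called in each of 16 alternative settings. Slc17a8 differed by -0.33 (SE 0.077; adjusted p = 0.0178) and Ache by -0.27 (SE 0.081; adjusted p = 0.0399). For Slc18a3 the log2 fold of -0.24 (SE 0.084) did not pass (adjusted p = 0.069), and its 95% interval was -0.43 to -0.055.

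The calls of Slc17a8 and Ache were close to the threshold. Both were lost without the IP of control mouse 2 (adjusted p = 0.0567 for Slc17a8 and 0.112 for Ache) and without that of PMCA mouse 3 (0.0556 and 0.0972), by limma in each case. Leaving out control mouse 4 and PMCA mouse 3, chosen after the data were seen for their Xist level, gave 0.0726 and 0.115. Ache was also lost without the IP of control mouse 1 or 4 or of PMCA mouse 1 or 4. Both were lost with the animal-number set as a block and control mouse 4 placed by its source name (0.1002 and 0.212). Of the 16 alternative settings, Slc17a8 was called in 12 and Ache in 5.

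Rpl22, the gene of the tagged protein, moved with the treatment. Its level in IP was 8.11 ± 0.11 log2 CPM in PMCA mice and 9.80 ± 0.15 in control mice, a difference of -1.69 (SE 0.089; limma, adjusted p = 1.92e-05), and in input it was 6.72 ± 0.086 in PMCA mice and 7.60 ± 0.14 in control mice (-0.88; adjusted p = 0.000489). Reads of the viral and the mouse's own Rpl22 are not separated in the table. An effect of the pump and one of the Rpl22 level cannot be told apart in this design.

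Markers of other cells moved too in the same comparison. Of 13 general neuron markers 9 were lower in PMCA IP (median -0.47), with Snap25 at -0.51 and Eno2 at -0.47, and Syt1 at -0.32 was not called (limma, adjusted p = 0.0999). Their summed level was 2731 to 3079 CPM in PMCA IP and 3415 to 4568 in control IP. Of 12 GABAergic interneuron markers 7 were lower (median -0.45), with Npy at -0.25, while Nos1 at -0.12 and Sst at -0.049 were not called, and their sum was 835 to 964 CPM in PMCA IP and 1042 to 1066 in control IP. Of 13 projection neuron markers 2 were lower (median -0.10), and 0 to 4 were over the settings. For all genes the share called lower was 10.1%, so the projection neuron count was near it. In PMCA IP 4 of 14 astrocyte markers (median 0.26), 4 of 8 microglial markers (0.85) and 3 of 6 endothelial markers (0.82) were higher, beside 9.54% of all genes, and no marker of these lists was called lower. The microglial and endothelial rises were at low levels. The endothelial sum was 7.2 to 12.6 CPM in PMCA IP and 4.9 to 5.4 in control IP. None of the markers in these lists was at 0 in all libraries of a group. The part of these shifts in the cholinergic result was not tested.

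Whether a member fell more than a list was compared as the member's level minus the median level of the list in each IP library, over 24 comparisons. None passed an exact two-sided permutation test of 4 against 4 mice after adjustment, and the smallest p that this design allows is 0.0286. After adjustment over 24 comparisons a single comparison could not pass even at that p, unless many others reached it too. The lack of a pass therefore does not show that members and lists shifted alike. Chat lay 0.18 above the shift of the GABAergic interneuron list (exact p = 0.629), -0.25 from that of general neurons (exact p = 0.143) and -0.40 from that of projection neurons (exact p = 0.114). Against the astrocyte list all 6 members reached the smallest p of 0.0286 (adjusted exact p = 0.114), with differences of -0.78 (Slc18a3) to -1.04 (Slc5a7).

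Of the 11 related cholinergic genes, 4 were lower in PMCA IP, none was higher, and the median log2 fold was -0.27. The shares of all genes called in this comparison were 10.1% lower and 9.54% higher. Ngfr was lowest at -1.17 (SE 0.17; limma, adjusted p = 0.00343), with 2.82, 2.63, 2.36 and 3.33 log2 CPM in PMCA IP and 3.91, 3.99, 3.89 and 4.02 in control IP. Its PMCA values were widely spread and all below the control values. Drd5 differed by -0.43 and Slc10a4 by -0.33 (limma, adjusted p = 0.0223 and 0.0152). Chrm2 at -0.37, Gbx2 at -0.27, Ecel1 at -0.24, Isl1 at -0.21, Nkx2-1 at -0.17, Tacr1 at -0.14 and Zic4 at -0.017 were not called. With the alternative settings between 1 and 5 of the 11 were called lower. Acly differed by -0.40 (limma, adjusted p = 0.00876), while none of 15 acetylcholine receptor genes was called (median -0.17).

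In the lysate the cholinergic genes did not differ detectably between treatments. None of the 6 was called by limma in input, and 2 of 6, Slc5a7 and Slc17a8, had an unadjusted p under 0.05. The log2 folds were 0.18 (SE 0.078) for Slc5a7, 0.16 (SE 0.071) for Slc17a8, 0.088 (SE 0.055) for Chat, -0.014 (SE 0.056) for Ache, -0.036 (SE 0.097) for Lhx8 and -0.076 (SE 0.11) for Slc18a3, with limma adjusted p-values of 0.243 to 0.919. Over all genes 0.442% were called in input. The PMCA and control input libraries overlapped for all 6, while 9.76% of all genes did not overlap. The 95% interval of Chat, -0.033 to 0.21, does not reach the -0.44 found in the precipitate. For Slc18a3, alone among the 6, the interval in input, -0.31 to 0.16, contains the -0.24 found in the precipitate. None of the 11 related genes was called in input either, with Ngfr at -0.31 (adjusted p = 0.508).

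**Figure D4:**
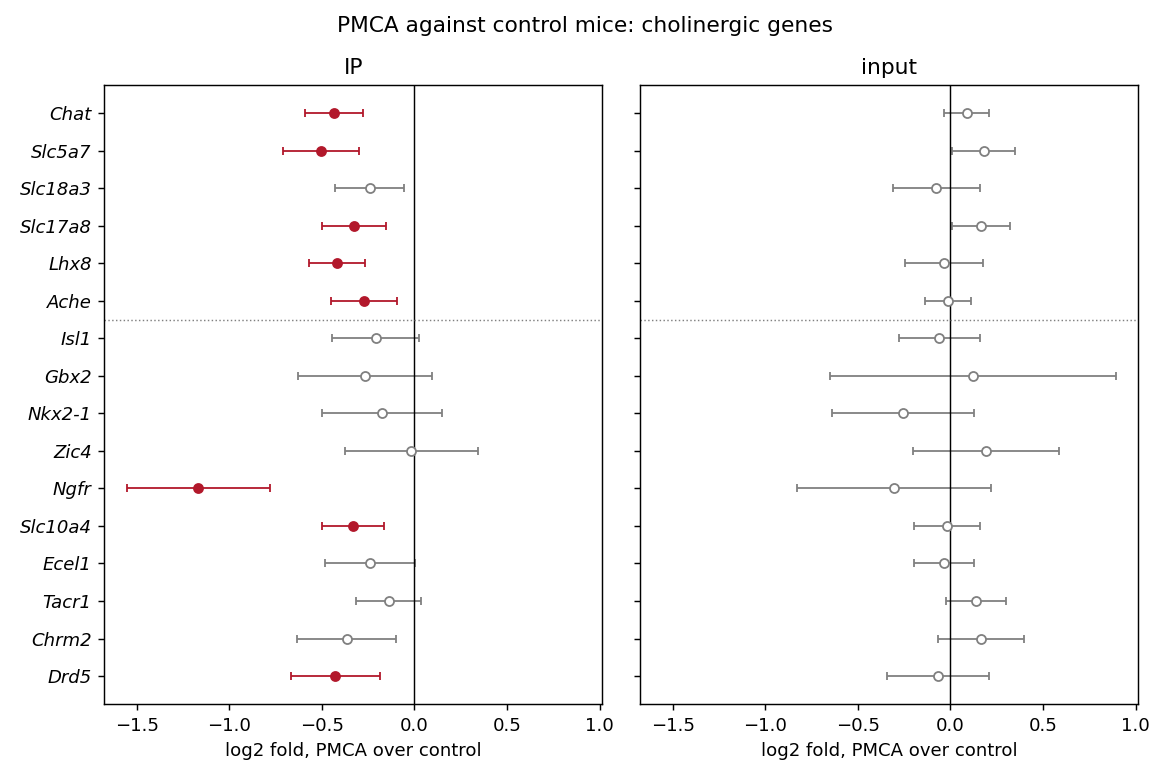
Log2 fold of PMCA over control (horizontal axis) in IP (left panel) and input (right panel) for the 6 cholinergic genes, above the dotted line, and 10 of the 11 related genes, with 95% intervals from limma. Filled points passed an adjusted p of 0.05, which 5 of 6 cholinergic genes did in IP and none in input. Of the related genes drawn, Ngfr, Slc10a4 and Drd5 passed in IP.

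The difference between the PMCA effect in IP and that in input was tested over all 16 libraries. It was negative for all 6 genes and passed for 3, while 1.06% of all genes were called lower. The difference was -0.52 (SE 0.084) for Chat, -0.68 (SE 0.13) for Slc5a7 and -0.49 (SE 0.10) for Slc17a8 (limma, adjusted p = 0.00814, 0.0171 and 0.0225). It was -0.38 (SE 0.11) for Lhx8, -0.26 (SE 0.10) for Ache and -0.17 (SE 0.14) for Slc18a3 and did not pass (0.0982, 0.202 and 0.595). The Slc17a8 call was lost without the IP of control mouse 2 (adjusted p = 0.0515) or the input of PMCA mouse 4 (0.0504), and without control mouse 4 and PMCA mouse 3 together (0.139). None of the 11 related genes passed, whereas 4 of 12 GABAergic interneuron and 4 of 13 general neuron markers were called lower. Rpl22 itself had a difference of -0.81 (adjusted p = 0.00384).

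The genes whose levels tracked Chat most closely were sought among 16673 genes, as a description over 16 libraries that share 4 groups and their scaling. By log2 CPM the closest included Acly (Pearson r = 0.997), Slc17a8 (0.997), Clstn2 (0.997) and Lpin1 (0.997). Slc5a7 ranked 9 and Ache 16, whereas Slc18a3 ranked 84 and Lhx8 348. Such values follow the differences between the groups, so the deviations from each group's mean were compared as well. By deviations the closest were Rbms1 (r = 0.887), Slc7a14 (0.887), Il20ra (0.867), Tubgcp2 (0.852) and Slc5a7 (0.843). This measure leaves out the group differences. Unlike Chat, Rbms1 and Il20ra were lower in IP than in input, with log2 folds of -0.24 and -2.09 in PMCA mice. In control mice these were -0.27 and -1.96.

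Within groups the 6 genes varied together in part. Chat and Slc5a7 deviated together across the 16 libraries (r = 0.843), Slc5a7 with Ache (0.641) and Lhx8 with Ache (0.606) less so. For Chat the value was 0.51 with Slc17a8, 0.49 with Ache and 0.31 with Lhx8. With Slc18a3, the gene nested in the Chat locus, it was 0.12. The counts behind Slc18a3 were 1479 to 1707 reads in PMCA IP and 1887 to 2021 in control IP, and 286 to 387 in PMCA input and 274 to 460 in control input.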

How the data were processed

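RNA was sequenced from 8 precipitates (IP) and 8 inputs of 8 mice. Per the labels' protocols, stranded TruSeq libraries were made after RiboZero Gold treatment and read on a HiSeq4000. The submitters' processing notes name STAR, HTSeq, edgeR, limma and mm10, without versions, roles or counting settings. The authors deposited log2 CPM values for 20730 genes in each library. Undoing the log2 scale and an average prior count of 0.25 gave whole reads (within 0.001) for 100% of values, from which depths and the authors' scaling factors (0.891 to 0.918 in IP, 1.10 to 1.12 in input) were read.

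Each comparison was fitted with limma 3.58.1 in R 4.3.3 on the deposited log2 CPM, with a mean-variance trend, two-sided, and Benjamini-Hochberg adjustment over all genes tested at 0.05. A gene entered if 4 libraries reached the level that 10 reads give at the median library size and its reads summed to 15 or more. Groups came from the treatment and fraction labels. IP and input of 1 mouse share an animal number, and their deviations from the group means correlated with r of 0.11 to 0.33 in the 8 same-mouse pairs, against -0.20 to 0.078 in 24 pairs of different mice, so the pairing given by the labels was also visible in the values. For control mouse 4 the title and the source name differ in the animal number. Alternatives were other scalings, a prior count of 2, no filter, voom weights, the animal or the animal-number set as a block, and each library left out.

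The naming rule takes the 6 members, 11 related cholinergic genes, the 3 highest genes by mean level of each other list, and the 5 genes most like Chat by each measure. Rpl22 and Xist were added. A few genes that the rule takes are not reported here, though they stay in all fits, counts and medians. Members and lists were chosen with earlier results of these data known. Promoters come from RefSeq (GRCm38.p6), where all 6 members matched, and motif matches are exact. Exon lengths were not used here, so levels of different genes are not ranked.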

Additional observations from a re-analysis of the deposited data

Results flagged for a closer look

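Among 64 groups of 4 libraries examined, 2 held a library far from the other 3, and chance gives about 1 in 20. Isl1 was at 3.24 log2 CPM in the IP of PMCA mouse 3, while the other PMCA IP libraries were at 3.46 to 3.47. Zic4 was at 0.025 log2 CPM in the input of control mouse 4, with the other control inputs between -0.27 and -0.24.

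The effect of PMCA differed between IP and input, by the test of that difference with limma, for 8 of the genes named. Over all 16673 genes tested, 162 were called higher and 177 lower. The log2 difference was -0.52 for Chat, -0.68 for Slc5a7 and -0.49 for Slc17a8, among the cholinergic genes. It was -0.40 for Acly, -0.47 for Nos1, -0.44 for Slc7a14 and -0.81 for Rpl22. For the endothelial marker Ly6c1, with only 61 to 112 reads in PMCA IP and 35 to 44 in control IP, it was 1.28. Of 115 values of these genes outside the members over the alternative settings, 19 lost the call and 0 changed sign. The lost calls were those of Acly, Nos1 and Slc7a14.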

How the results depend on the processing

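All 6 cholinergic genes were called higher in IP than in input in each of 15 alternative settings in PMCA mice and 15 in control mice, each library left out included. With the animal as a replicate block 12733 genes were called in PMCA mice and 12772 in control mice, against 12551 and 12457 without it, and all 6 members were called. Leaving out 1 library gave 12002 to 12912 genes in PMCA mice and 11947 to 12425 in control mice. With CPM of the library total, 4283 genes were higher and 8908 lower in PMCA mice (6121 and 6430 with the authors' scaling), and 4486 higher and 8417 lower in control mice (6285 and 6172).

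For PMCA against control in IP, 3088 genes and 5 members were called. The animal-number set as a block, with control mouse 4 placed by its source name, gave 1699 genes and 3 members. Leaving out control mouse 4 and PMCA mouse 3, an alternative added after the data were seen, gave 1240 genes and 3 members. Leaving out 1 IP library gave 1702 to 3606 genes and 3 to 5 members. The lowest count, 1702, came without control mouse 2, and 1716 came without PMCA mouse 3; in both cases Slc17a8 and Ache were lost. The Ache call was also lost with median-of-ratios scaling (adjusted p = 0.0607), without the filter (0.0669), with the number set as a block (0.0503) and without control mouse 1 or 4 or PMCA mouse 1 or 4 (0.0504 to 0.0795). Of 240 values for other named genes, 30 lost the call and 0 changed sign.

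In input 72 genes were called. The count was 27 without the filter, 868 with the number set as a block, 32 with control mouse 4 placed by its source name and 490 without control mouse 4 and PMCA mouse 3. It ran from 4 to 1352 with 1 input left out, highest without control mouse 4 and lowest without PMCA mouse 1, and 0 members were called throughout. With 1 input left out the log2 fold ran from -0.15 to 0.0032 for Slc18a3, from -0.095 to 0.027 for Lhx8 and from -0.049 to 0.033 for Ache. The sign turned for Slc18a3 without control mouse 4 (0.0032) and without both mice (0.050), for Ache without control mouse 1 (0.033) or PMCA mouse 3 (0.0081), and for Lhx8 without PMCA mouse 3 (0.027). The cause was not tested.

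For the difference of the PMCA effect, 339 genes and 3 members were called, with 466 and 3 under the animal as a replicate block, which changed no call of a member. Leaving out control mouse 4 and PMCA mouse 3 gave 43 genes and 2 members, and leaving out 1 library gave 112 to 779 genes and 2 to 3 members, lowest without the input of PMCA mouse 4 and highest without the IP of PMCA mouse 4. Library totals gave 120 genes higher and 235 lower, against 162 and 177. Chat and Slc5a7 were called in 23 of 23 settings and Slc17a8 in 20. With 4 mice in each group, small differences in input remain within the intervals given.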
